A study of Mus musculus with 30 samples.

Results

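The cell cycle genes described here are 36 genes chosen by name for their roles in DNA replication and cell division. A gene was kept where at least 1 of its probes was well above background on 3 or more of 30 arrays, and 32 of the 36 met this, among 25210 genes kept on the array. The 4 left out were Ccne2 (cyclin E2), Cdc6 (an origin licensing factor), Aurkb (Aurora kinase B) and Bub1 (a spindle checkpoint kinase). Of 50 probes for these genes 40 were kept, and for 7 genes with more than 1 kept probe the brightest on average was taken. At the edge of the rule, the probes of Bub1 and Cdc6 were above background on 1 array, and further probes of Ccnb1 and Tk1 on 2. Just inside it lay a further Ccnb1 probe on 3 arrays, a further Birc5 probe on 4, and Kif11, whose used probe was above background on 4.

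The arrays measured RNA of peripheral blood mononuclear cells (lymphocytes and monocytes) of C57BL/6 mice, all female and 6 weeks old. Mice had received oleic acid (OA) into the tail vein, a fatty acid that injures the lung by this route, at 1.2 µl/g body weight in 200 µl, or the same volume of physiological serum, and none was left untreated. All were anaesthetised with xylazine and ketamine and killed 1, 1.5, 3, 4, 18 or 24 h later. The serum groups had 3, 3, 2, 1, 2 and 2 arrays in that order and the OA groups 3, 3, 3, 2, 3 and 3. Cells were separated from 200 to 900 µl of blood on Ficoll of density 1.084 g/ml, a step by density and not by cell type. Each array was taken as 1 mouse, since the design counts 30 mice. P-values therefore measure the spread between these mice, and the single serum array at 4 h was assumed to vary like the other groups.

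A dividing cell licenses its replication origins by loading the MCM helicase, fires them and copies its DNA in S phase with the clamp Pcna and a supply of nucleotides, and then enters mitosis under Cdk1 and its cyclins. Many of these genes are transcribed in 2 waves, under E2F factors before S phase and under B-Myb, FoxM1 and the MuvB complex before mitosis. Most circulating lymphocytes and monocytes are at rest, whereas the erythroblasts of marrow and spleen divide until shortly before they lose the nucleus and become reticulocytes, the young red cells of blood.

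Promoter sequences are shown for the members on which the results turn: 3 of the 4 with the steepest relation to red cell markers, and the 3 with the smallest p at 24 h. RefSeq (GRCm38.p6) gave a promoter for 28 of the 32 kept members and none for Ccna2, Kif20a, Mcm4 and Tpx2. Each line is the 150 bases before the annotated start, 5′ to 3′ on the gene's strand. Capitals mark an E2F motif (TTTCCCGC, TTTGGCGC, TTTCGCGC or TTTGCCGC), a CHR (cell cycle homology region, TTTGAA or TTCGAA) or a CCAAT box, on either strand and with overlaps joined. Ube2c lies at chr2:164769779-164769928 (plus strand), Nusap1 at chr2:119618148-119618297 (plus), Mki67 at chr7:135716380-135716529 (minus), Pcna at chr2:132253181-132253330 (minus), Mcm6 at chr1:128359706-128359855 (minus) and Mcm3 at chr1:20820313-20820462 (minus).
Ube2c: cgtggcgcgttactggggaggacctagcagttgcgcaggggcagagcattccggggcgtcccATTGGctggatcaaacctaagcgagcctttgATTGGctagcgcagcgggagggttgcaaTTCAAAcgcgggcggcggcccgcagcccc
Nusap1: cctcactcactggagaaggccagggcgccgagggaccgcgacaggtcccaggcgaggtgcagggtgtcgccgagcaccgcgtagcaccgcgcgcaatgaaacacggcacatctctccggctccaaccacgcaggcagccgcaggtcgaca
Mki67: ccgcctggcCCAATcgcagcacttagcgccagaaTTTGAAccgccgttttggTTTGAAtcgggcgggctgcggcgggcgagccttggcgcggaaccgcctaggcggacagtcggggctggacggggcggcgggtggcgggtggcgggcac
Pcna: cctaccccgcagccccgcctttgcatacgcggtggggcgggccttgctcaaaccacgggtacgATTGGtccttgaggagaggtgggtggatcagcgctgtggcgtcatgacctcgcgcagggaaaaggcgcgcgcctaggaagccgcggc
Mcm6: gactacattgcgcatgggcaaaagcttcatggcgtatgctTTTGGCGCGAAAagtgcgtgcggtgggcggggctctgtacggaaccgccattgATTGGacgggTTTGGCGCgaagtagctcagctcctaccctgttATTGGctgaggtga
Mcm3: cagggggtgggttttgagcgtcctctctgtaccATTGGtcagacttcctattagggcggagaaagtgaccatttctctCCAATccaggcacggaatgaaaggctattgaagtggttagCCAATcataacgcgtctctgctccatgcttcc

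Among these 6 promoters, Ube2c held 1 CHR and 2 CCAAT boxes and Mki67 held 2 CHR and 1 CCAAT box. Mcm6 held 3 E2F motifs, of which a pair overlapped on opposite strands, beside 2 CCAAT boxes. Pcna held 1 CCAAT box and Mcm3 held 3, and the Nusap1 window held none of these letters. Over the 28 members with a promoter, 21 (75%) held a CCAAT box in the same window, against 24.5% of 32851 promoters in the table. A CHR was present in 8 members (28.6%; Cdc20, Cdk1, Kif11, Mcm2, Mki67, Prc1, Top2a and Ube2c) against 9.7% of all promoters. An E2F motif was present in 3 (10.7%; Cdk1, Mcm5 and Mcm6) against 1.24%. A member counted where any of its promoters held the motif, while the background is a share of promoters, so that the units differ. A match is a string of letters and was not tested as a binding site.

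The arrays differed in quality. The 75th percentile of the processed signal, to which each array was scaled, ranged from 37.7 to 136 intensity units. It was 37.7 to 87 on serum arrays and 43 to 136 on OA arrays. Its part in the counts of arrays above background was not tested. The share of probes well above background ranged from 34.6% to 64.8%. Between 20 and 32 of the 32 members were above background per array. The arrays came from 5 slides scanned on 2 days. Slide 5 made up scan day 2 and held OA arrays alone. They were replicates 2 and 3 at 1 h, replicate 3 at 3 h, and replicate 1 at 18 h and at 24 h. All serum arrays were scanned on day 1, so that for these OA arrays treatment cannot be told apart from slide and scan day. On 3 arrays the median correlation with the others was below 0.9, namely replicate 1 of serum at 24 h (0.797), replicate 2 of OA at 4 h (0.835) and replicate 3 of serum at 1.5 h (0.885). The same 3 had the highest signal at probes for long intergenic RNA, relative to probes detected on all arrays (-1.87, -2.07 and -3.06). Markers of T cells, B cells, monocytes and NK cells were present, and so were those of neutrophils, platelets and young red cells. Of 13 measured markers of reticulocytes and erythroblasts, 11 were above background on all 30 arrays, the exceptions being Rhag (23 arrays) and Klf1 (5). In blood RNA, fewer cells of a type and less RNA per cell cannot be told apart.

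**Figure D1:**
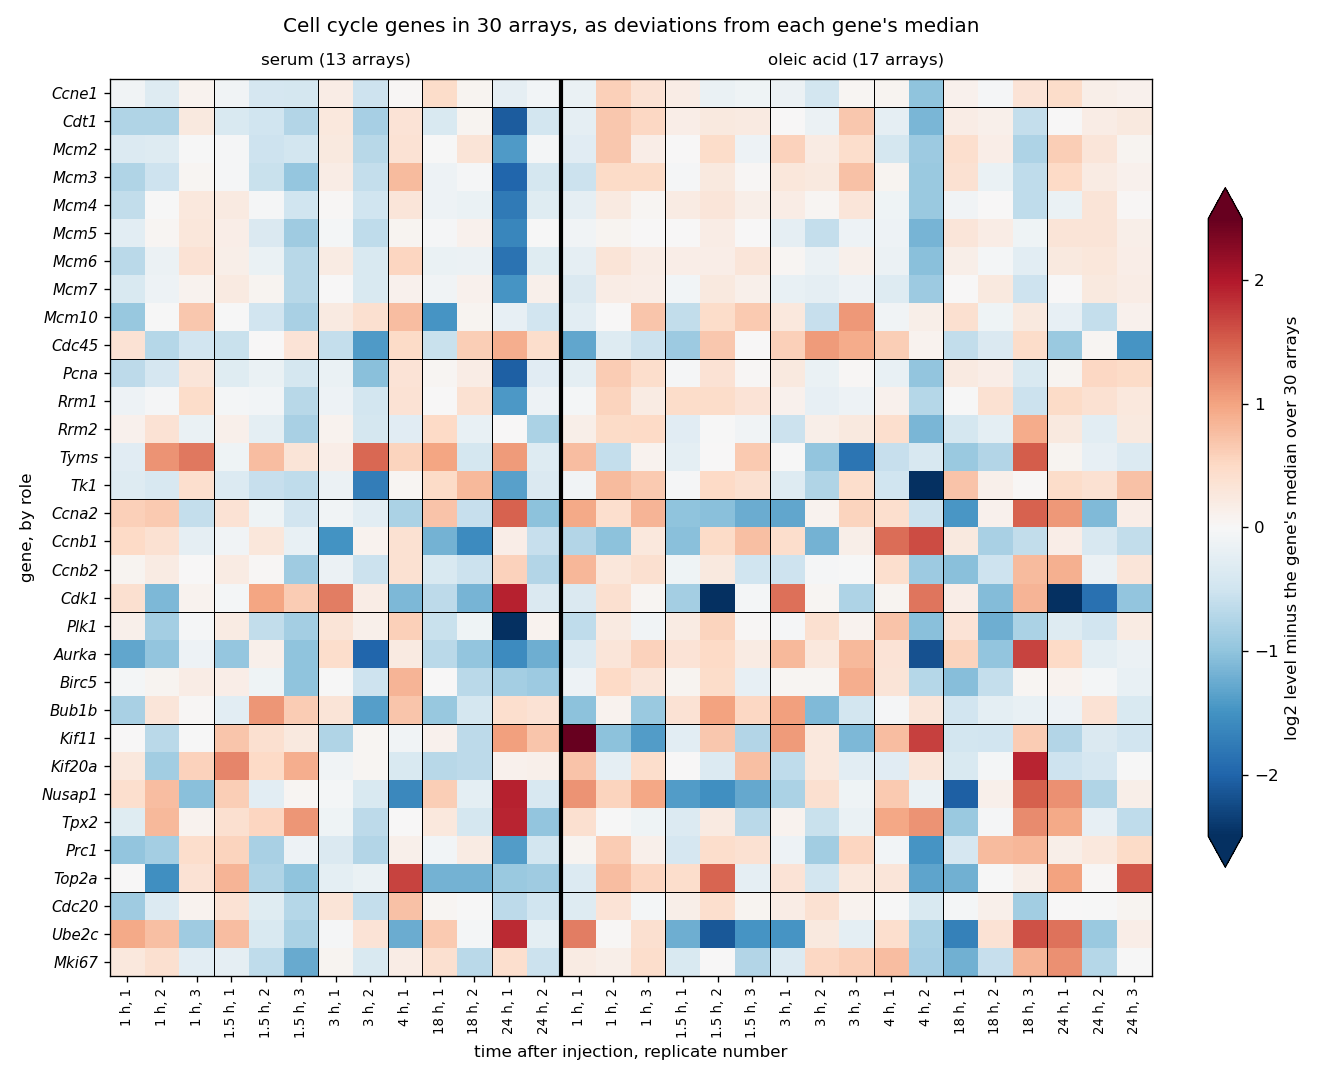
Levels of the 32 kept cell cycle genes (rows, by role) on the 30 arrays (columns, by treatment and time), drawn as the log2 difference from each gene's own median over arrays. Serum 24 h replicate 1 is low for the MCM genes and Pcna and high for Ube2c, Nusap1 and Ccna2.

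Levels below are log2 values relative to the 75th percentile of the array, so that a difference of 1 is a doubling. Of the 32 members, 18 were above background on all 30 arrays and 4 were above it on fewer than 10. Taking in each role the member with the brightest probe, which ranks no transcripts since probes differ in response, Mcm6 stood for the origin and helicase genes (1.91 to 4.29 over 30 arrays), Pcna for DNA synthesis genes (1.21 to 3.88), Ccna2 for cyclins and Cdk1 (-0.83 to 2.11), Birc5 for kinases and checkpoint genes (-0.78 to 1.2), Nusap1 for spindle genes (1.2 to 5.17) and Ube2c for the anaphase genes (2.75 to 6.73). Ccne1 (cyclin E1), the kept cyclin of the G1/S transition, lay between -0.19 and 1.43. The ranges differed in width by gene, and Ube2c spanned 3.98 log2 units where Mcm7 spanned 1.72. The widest range belonged to Kif11 (a spindle motor), at 0.93 on OA 1 h replicate 1 and between -5.20 and -2.10 on the others.

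The members did not move as 1 block across mice. Within groups, 7 of the 32 members rose with the mean level of the 13 red cell markers (slope of a limma model with 12 groups, adjusted p under 0.05 over all genes), which is 21.9% against 7.69% of all genes, and none fell with it, as 1.14% of all genes did. These were Ube2c, Nusap1, Ccna2, Mki67, Ccnb2, Rrm2 and Tpx2. Of the 13 red cell markers themselves, each a part of this mean, 8 passed with a positive slope and none with a negative one. Another 12 members rose with the mean level of 9 T cell markers, which is 37.5% against 34.1% of all genes and so close to the background. These were Mcm2 to Mcm7, Cdt1, Pcna, Rrm1, Tk1, Plk1 and Cdc20. The 4 that fell with it (Tyms, Kif11, Nusap1 and Tpx2) stand beside 16.6% of all genes that fell. The other 13 members followed neither positively, and 2 of these 13 (Ccne1 and Birc5) were above background on all arrays.

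Ube2c is the ubiquitin-conjugating enzyme that works with the anaphase promoting complex. Its level ran from 3.61 to 6.73 in the 13 serum arrays (median 4.84) and from 2.75 to 6.46 in the 17 OA arrays (median 4.88). The ranges of both treatments overlapped nearly fully, and the highest arrays were serum 24 h replicate 1 and OA 18 h replicate 3, which also had the highest red cell marker means (4.72 and 4.73, against a median of 3.52). Within groups Ube2c rose by 1.47 ± 0.119 (SE) log2 units per log2 unit of the marker mean, with an adjusted p of 3.98e-08 in limma.

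Nusap1, a microtubule protein of the spindle, ran from 1.62 to 5.17 in serum arrays (median 3.19) and from 1.2 to 4.74 in OA arrays (median 3.37). It was highest on the same pair of arrays and lowest on OA 18 h replicate 1, where the red cell marker mean was also lowest (2.45). Its slope was 1.36 ± 0.109 (adjusted p = 3.73e-08 in limma). Ccna2 (cyclin A2, which acts in S phase and at entry to mitosis) ran from -0.39 to 2.11 in serum arrays (median 0.53) and from -0.83 to 2.11 in OA arrays (median 0.73), with a slope of 1.34 ± 0.11 (adjusted p = 4.84e-08 in limma). Again the same pair of arrays held the highest values in each treatment. Mki67, the gene of the Ki-67 antigen used to stain cycling cells, ran from 0.13 to 1.82 in serum and from 0.20 to 2.54 in OA arrays, with a slope of 0.91 ± 0.133 (adjusted p = 0.000114 in limma).

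The remaining slopes of this set were smaller. Ccnb2 (cyclin B2) had a slope of 0.70 ± 0.133, Rrm2 (the regulated subunit of ribonucleotide reductase) 0.59 ± 0.128, and Tpx2 (a spindle assembly factor) 0.70 ± 0.214, with adjusted p-values of 0.00145, 0.00454 and 0.0459 in limma. As correlations of deviations from group means over 30 arrays, Ube2c had Pearson's r = 0.96 and Spearman's rho = 0.94, Nusap1 0.97 and 0.96, Ccna2 0.97 and 0.96, and Mki67 0.88 and 0.86. Each had a permutation p of 8e-05 or less for both measures (100000 resamples within groups; adjusted over 32 relations, 0.00064 or less). Ccnb2 gave r = 0.82 and rho = 0.78 (permutation p = 6e-05 and 1e-04, adjusted 0.000384 and 0.00064), and Rrm2 r = 0.79 and rho = 0.82 (p = 0.00041 and 0.00035, adjusted 0.00219 and 0.00187). Tpx2 gave r = 0.61 and rho = 0.44 and did not pass in this test (permutation p = 0.0534 and 0.109, adjusted 0.173 and 0.316).

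Without the pair of arrays farthest from the median marker level, r was 0.95 for Ube2c, Nusap1 and Ccna2, 0.83 for Mki67, 0.69 for Ccnb2, 0.67 for Rrm2 and 0.31 for Tpx2. Ube2c, Nusap1, Ccna2 and Mki67 still passed in that fit, and Ccnb2, Rrm2 and Tpx2 did not, which took the count from 7 to 4. In serum arrays alone the slopes were 1.41 for Ube2c, 1.40 for Nusap1 and 1.33 for Ccna2 but none of 25210 genes passed (adjusted p of these 3 in limma 0.0831, 0.0681 and 0.0888). In OA arrays alone they were 1.5, 1.33 and 1.34 (0.000137, 0.000281 and 0.000137), and 5 members passed. Tpx2 passed in the main model only by a narrow margin, and its probes disagreed (r = 0.39 over 30 arrays between its used and its other kept probe). For Ube2c and Mki67 the other kept probe ran with the used one (r = 0.99 and 0.94).

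**Figure D2:**
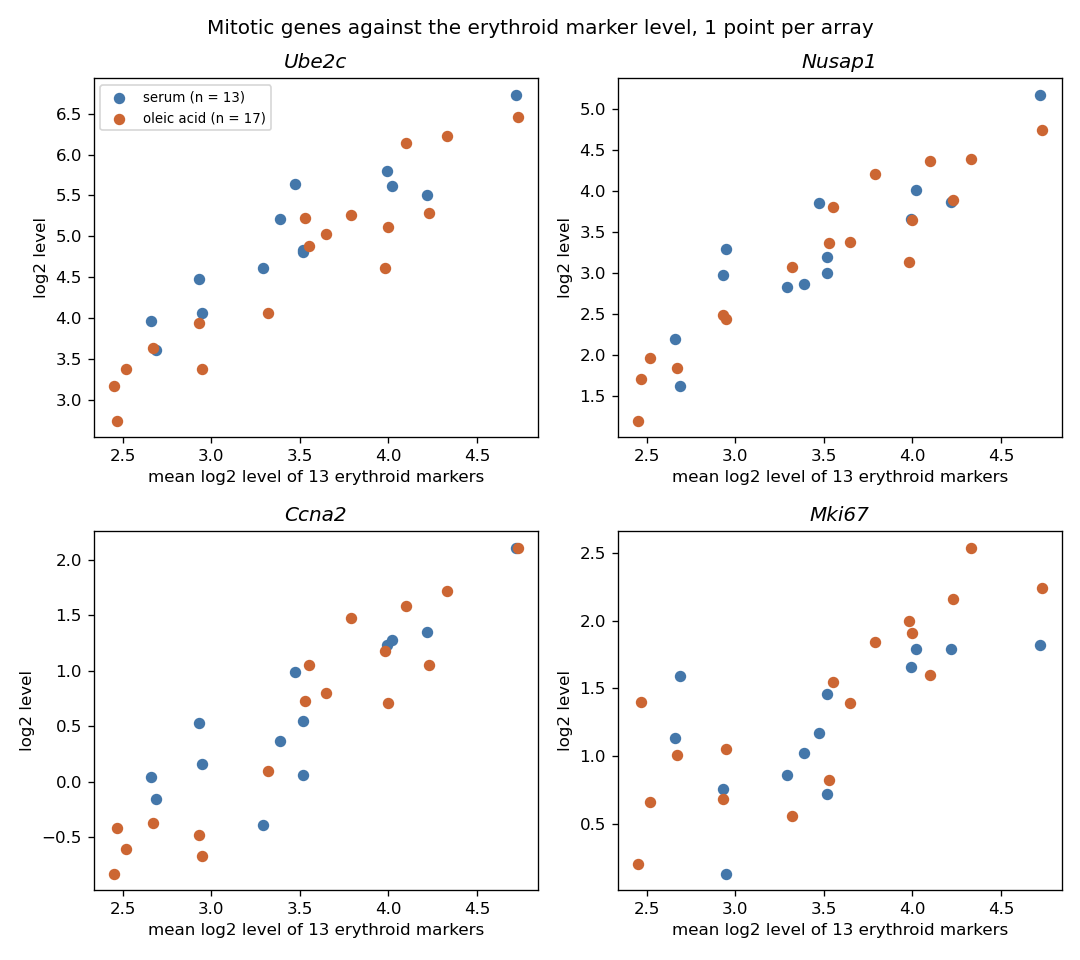
Log2 level of Ube2c, Nusap1, Ccna2 and Mki67 on each of the 30 arrays (vertical axes) against the mean log2 level of 13 reticulocyte and erythroblast markers on the same array (horizontal axes), with serum and OA arrays in different colours. Points of both treatments overlap and rise together in each panel, more steeply for Ube2c, Nusap1 and Ccna2 than for Mki67.

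The red cell and T cell marker means were themselves related within groups (r = -0.48 over 30 arrays), and with both in 1 model 6 members kept a positive red cell slope that passed, Tpx2 being lost. Of the 82 measured genes on a wider list of cell cycle genes, 5 rose with the red cell markers, which is 6.1% and near the background of 7.69%. They were E2f2, a transcription factor (slope 1.14, adjusted p = 8.57e-08 in limma), Lig1, the replicative DNA ligase (1.23), Pttg1, or securin (0.92), Gadd45a, a stress-induced gene (0.77), and Racgap1, a cytokinesis factor (0.68). Dbf4, the activator of the Cdc7 kinase, and Lin54, a MuvB subunit, fell with them (-0.47 and -0.52).

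Of the 9 origin and helicase genes 7 rose with the T cell markers, and of the 5 DNA synthesis genes 3 did. Mcm10 and Cdc45 followed neither marker set, Rrm2 rose with the red cell markers and Tyms fell with the T cell markers. Slopes on the T cell marker mean lay between 0.76 (Rrm1) and 1.02 (Mcm3) for Mcm2 to Mcm7, Cdt1, Pcna, Rrm1 and Tk1. Those of Plk1 (a mitotic kinase) and Cdc20 (an activator of the anaphase promoting complex) were 1.26 and 0.50. The median correlation between pairs of these 12 members was 0.78 within groups, that between pairs of the 7 that followed red cell markers 0.80, and that between a gene of either set and a gene of the other -0.27, as a description of sets that the same values had chosen. The T cell marker mean ran against the intergenic probe signal (r = -0.80 within groups over 30 arrays). Scaled to always detected probes, after quantile normalization, in the authors' deposited values or with the intergenic signal as a covariate, none of the 12 slopes passed in limma. The part of RNA quality in them was not tested. Below, the 12 are named as a set for description alone, since their share was close to that of all genes.

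Between OA and serum, no member passed at 1, 1.5, 3, 4 or 18 h in limma (adjusted p under 0.05 over all genes), and neither did any of the genes tested, so that the background was 0% at each of these times. At an unadjusted p under 0.05 there were 0, 2, 2, 3 and 1 members in that order, against 1287, 2547, 1956, 2627 and 253 of all genes. At 24 h, 10 of the 32 members passed (31.2%), 8 higher and 2 lower in OA, against 31.5% of all genes, 15.6% higher and 15.9% lower. The members' share at 24 h was thus that of the array as a whole, although their median difference was 0.53 against 0.05 for all genes. Without serum 24 h replicate 1 no member passed, and 39 genes did in all.

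**Figure D3:**
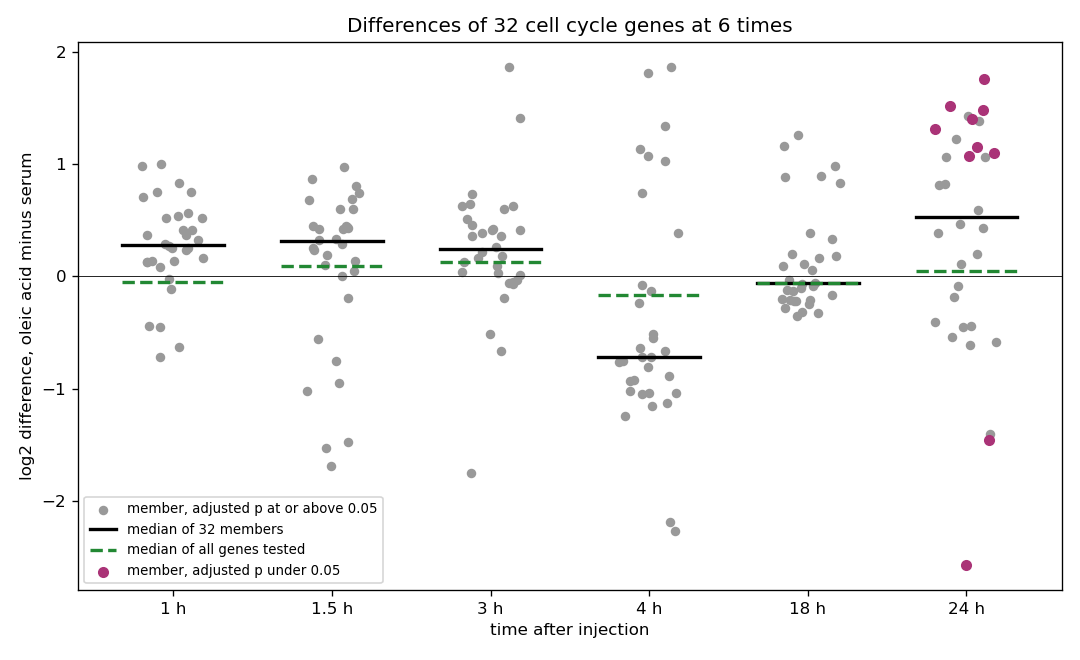
Log2 difference of OA minus serum for each of the 32 members (points) at the 6 times (horizontal axis), with the median of the members and of all genes as bars and the members past an adjusted p of 0.05 in colour. Members past the threshold appear at 24 h only, 8 above 0 and 2 below.

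For mice killed at 1 h, member differences of OA minus serum ran from -0.72 to 1, with none past the threshold. In OA 26 of 32 members had a difference above 0, with a median of 0.28 against -0.05 for all genes. OA replicates 2 and 3 were on slide 5, which held no serum array. Slide 1 alone held both treatments at this time, with 2 serum arrays and 1 OA array. Within it 14 members had a difference above 0, with a median of -0.07 against -0.02 for all genes. The smallest p belonged to Cdt1, the licensing factor that loads MCM on origins, at 2.64, 2.64 and 3.65 in serum and 3.18, 4.08 and 3.91 in OA. The groups overlapped, as they did for all members but Ccnb2, which was higher without overlap (3.27% of all genes were, and 8.19% were lower without overlap). The difference was 0.75 ± 0.417 (SE; adjusted p = 0.825 in limma). Prc1, a cytokinesis factor, and Aurka (Aurora kinase A) followed at 0.75 and 0.98, with the same adjusted p.

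At 1.5 h all 12 members that followed T cell markers had differences above 0 (0.23 to 0.80, median 0.45). The share of all genes with a T cell slope that did so was not computed. Serum replicate 3 at this time is 1 of the 3 arrays with a median correlation below 0.9. Its T cell marker mean was 4.54, against 5.34 and 5.31 in the other serum mice. Without those 3 arrays, 20 of the 32 members had a difference above 0, in place of 24. The 7 that followed red cell markers had a median of -0.95, with 4 below 0 and 3 above (Mki67 at 0.33, Rrm2 at 0.19 and Ccnb2 at 0.10). Nusap1 stood at 3.85, 2.98 and 3.29 in serum and 1.84, 1.71 and 1.96 in OA, a difference of -1.53 ± 0.7 (adjusted p = 0.485 in limma). Ube2c stood at 5.64, 4.48 and 4.06 in serum and 3.64, 2.75 and 3.38 in OA (-1.47), and Ccna2 at 0.99, 0.53 and 0.16 against -0.37, -0.42 and -0.61 (-1.02). For all 3 genes each OA mouse was below each serum mouse. Such separation, downward, held for 4 members in all, with Tpx2 as the fourth, and for 7.02% of all genes. The mean of the red cell markers at this time was 3.12 ± 0.306 in the 3 serum mice and 2.55 ± 0.106 in the 3 OA mice (SD). Of the 13 red cell markers 10 were lower in OA and 3 higher (-1.69 to 1.59, median difference -0.82). All 10 platelet markers were higher in OA (median difference 1.92), 8 of them without overlap, each at an unadjusted p under 0.05 and none at an adjusted p under 0.05 in limma. The part of either marker set in the result was not tested.

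Within the slides that held both treatments at 1.5 h, Ube2c differed by -1.73 and -0.68, Nusap1 by -1.26 and -1.33 and Ccna2 by -0.95 and -0.77, with 1 array of each treatment per slide. On slide 4, which gave the latter value of each pair, the serum array was replicate 3, with a median correlation below 0.9. Cdk1, the mitotic kinase, had the smallest p at this time, at -2.96, -1.93 and -2.27 in serum and -3.76, -5.54 and -2.95 in OA. It was above background on 1 serum array and no OA array (difference -1.69, adjusted p = 0.470 in limma). In the main processing OA was at least 1.43-fold lower, a bound that uses the mean of all 3 serum arrays. Under other settings or with 1 array left out, the difference was as small as -0.15. Rrm1, the large subunit of ribonucleotide reductase, was at 0.35, 0.33 and -0.28 in serum and 0.86, 0.87 and 0.75 in OA (0.69, adjusted p = 0.495 in limma), without overlap. Upward separation of this kind held for 7 members and for 18.5% of all genes.

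Cdc45, the helicase factor that joins MCM when origins fire, had the smallest unadjusted p of any member at any time, at 3 h. It was at -2.88 and -3.70 in serum and -1.69, -1.23 and -1.36 in OA, not well above background on either serum array and above it on all 3 OA arrays. In the main processing OA was at least 1.79-fold higher (difference 1.86 ± 0.527, SE; in limma, adjusted p = 0.62 over 25210 genes, with an unadjusted p of 0.00187). Under other settings or with 1 array left out, the Cdc45 difference ran from 0.11 to 2.27. Tyms (thymidylate synthase) ran the other way, at -2.16 and -0.90 in serum and -2.35, -3.32 and -4.16 in OA (-1.75, adjusted p = 0.62 in limma), and Aurka differed by 1.41. None of the 3 was above background on all arrays. At this time 4 members (Cdc45, Mcm3, Mcm4 and Birc5) lay higher in OA without overlap and 1 (Tyms) lower, against 17.7% and 12.9% of all genes. The median over members was 0.24 at 3 h, against 0.13 for all genes.

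At 4 h, with 1 serum array, all 12 members that followed T cell markers had differences below 0 (-2.27 to -0.66, median -0.92). Here too the share of all genes with a T cell slope was not computed. The 7 that followed red cell markers had a median of 0.74, with 4 above 0 (-0.64 to 1.86). The red cell marker mean was 2.69 on the serum array and 3.32 and 4.23 on the OA arrays. Lower in OA were 9 of 9 monocyte markers (median difference -2.18), 10 of 10 neutrophil markers (-1.38), 10 of 10 B cell markers (-0.94) and 8 of 9 T cell markers (-0.67), none at an adjusted p under 0.05 in limma. The part of these markers in the result was not tested. Tk1 (thymidine kinase) was at -0.68 in serum and -1.23 and -4.67 in OA, a difference of -2.27 ± 0.87 (adjusted p = 0.472 in limma) that rested mainly on OA replicate 2, an array that stands apart. Top2a, the topoisomerase that untangles sister chromosomes, was at -0.68 in serum and not well above background on either OA array (-2.06 and -3.68), so that OA was at least 3.14-fold lower. Mcm6 was at 4.29 in serum and 3.60 and 2.71 in OA (-1.13). Each OA array lay below the single serum array for 17 members and above it for 8, against 41% and 30.9% of all genes. Over all members the median was -0.72 against -0.17 for all genes, and without the 3 arrays that stand apart it was -0.20.

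By 18 h the median over members was -0.06, the same as over all genes, and OA lay wholly above serum in 2 members (Kif20a and Ccnb1) and below it in none, against 2.67% and 4.22% of all genes. The 3 smallest p-values belonged to genes that were not above background on all arrays. Kif20a, a cytokinesis motor, was at -2.14 and -2.09 in serum and -1.82, -1.49 and 0.46 in OA, and Aurka at -2.29 and -2.61 in serum and -1.05, -2.61 and 0.08 in OA. Neither was well above background in serum (differences 1.16 and 1.26, adjusted p = 1 in limma). In the main processing the bound was 2.24-fold higher in OA for each, which for Kif20a is the ratio of the group means itself. Under other settings or with 1 array left out, these differences were as small as 0.25 and 0.26. OA 18 h replicate 3 was the highest array of all for both. It was also the array with the highest red cell marker mean. Ccnb1 (cyclin B1) differed by 0.98.

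At 24 h the 10 members that passed were Pcna, Mcm3, Mcm4, Mcm5, Mcm6, Cdt1, Rrm1 and Top2a, higher in OA, and Cdk1 and Cdc45, lower. By role, 5 of 9 origin and helicase genes rose and 1 fell, 2 of 5 DNA synthesis genes rose, 1 of 6 spindle genes rose and 1 of 4 cyclin and Cdk1 genes fell. None of the 4 kept kinase and checkpoint genes or of the 3 genes around the anaphase promoting complex passed in limma. Nor did Ccne1, the kept G1/S cyclin.

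Pcna, the sliding clamp of DNA polymerases, was at 1.21 and 2.97 in serum and 3.32, 3.77 and 3.73 in OA. Each OA mouse was above both serum mice, and serum replicate 1 was the lowest of all 30 arrays. The difference was 1.52 ± 0.434 (SE; adjusted p = 0.0222 in limma), and 0.64 without that array. Mcm6 was at 1.91 and 3.45 in serum and 3.99, 4.04 and 3.92 in OA, a difference of 1.31 ± 0.401 (adjusted p = 0.026 in limma; 0.53 without the array). Mcm3 was at 0.12 and 1.66 against 2.60, 2.31 and 2.20, a difference of 1.48 ± 0.456 (adjusted p = 0.0264 in limma; 0.70 without it). In both genes, subunits of the helicase ring, serum replicate 1 was again the lowest of all arrays.

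Cdt1 was at 1.32 and 2.95 in serum and 3.40, 3.58 and 3.64 in OA (1.40 ± 0.466), and Mcm4 at 1.54 and 3.00 against 3.14, 3.63 and 3.34 (1.1 ± 0.389). Mcm5 was at 0.23 and 1.85 against 2.17, 2.17 and 2.00 (1.07 ± 0.403). Rrm1 was at -1.03 and 0.27 against 0.88, 0.78 and 0.66 (1.15 ± 0.377). For these 4 genes, which passed with adjusted p-values of 0.0306 to 0.0473 in limma, the OA mice lay close together and above both serum mice. Without serum replicate 1 their differences were 0.58, 0.37, 0.26 and 0.50. With the intergenic signal as a covariate Cdt1 and Mcm5 turned to -0.02 and -0.05. Separation without overlap, upward, held at 24 h for 15 members and 27.5% of all genes, and downward for 5 members and 28.8%.

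Among the 10 members past the threshold, Top2a moved least when that array was left out. It was at -3.28 and -3.24 in serum, not well above background on either array, and at -1.36, -2.33 and -0.81 in OA, above it on all 3. The difference was 1.76 ± 0.657 (adjusted p = 0.0466 in limma), and 1.74 without serum replicate 1, where it no longer passed. No fold is given, since the bound that background sets on the serum arrays was not below the OA mean.

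Cdk1 was at -0.98 and -3.28 in serum and -5.44, -4.77 and -3.89 in OA, above background on 1 serum array alone. The difference was -2.57 ± 0.794 (adjusted p = 0.0265 in limma), or at least 1.77-fold lower. This bound uses the mean of both serum arrays and so rests mainly on serum replicate 1. The 75th percentile was 46.1 and 63.7 on these serum arrays and 135, 118 and 76.5 on the OA arrays, and its part was not tested. Without serum replicate 1, the highest of all arrays for this gene, the difference was -1.42. Cdc45 was at -1.39 and -1.85 in serum and -3.21, -2.24 and -3.77 in OA, a difference of -1.46 ± 0.527 (adjusted p = 0.0417 in limma; -1.22 without it). It was above background on no serum array and on 1 OA array, so that its direction rests on signals near background and no fold is given. Over the 10 members the adjusted p-values without serum replicate 1 were 0.523 to 0.838 in limma.

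**Figure D4:**
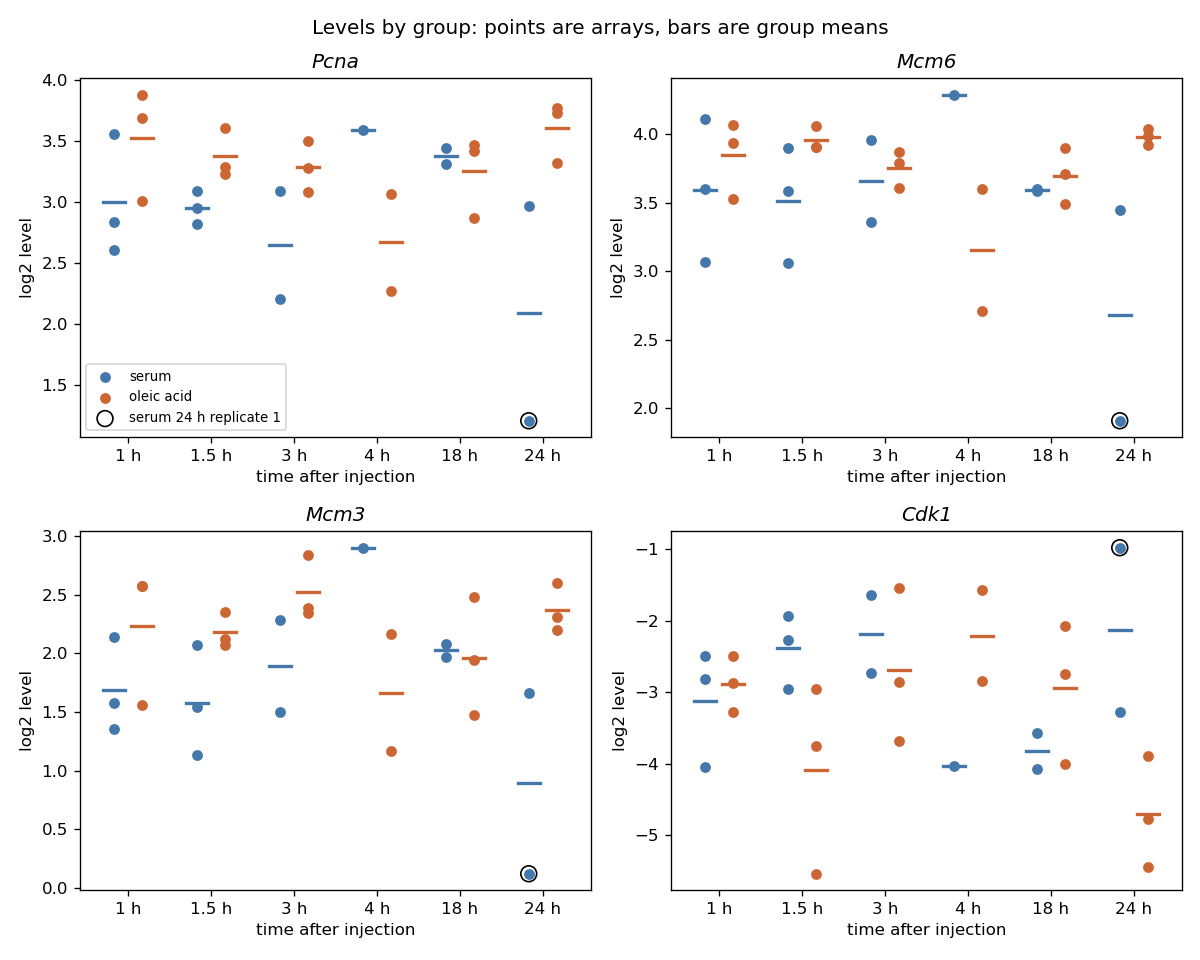
Log2 levels of Pcna, Mcm6, Mcm3 and Cdk1 by treatment and time, with each array as a point and the group mean as a bar. Serum 24 h replicate 1, circled, is the lowest point for Pcna, Mcm6 and Mcm3 and the highest for Cdk1.

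The same serum array had the lowest mean of T cell markers (4.01 against a median of 5.38) and of monocyte markers (0.29 against 2.70). At 24 h the mean of the 9 monocyte markers was 1.07 ± 1.11 in the 2 serum mice and 3.20 ± 0.101 in the 3 OA mice (SD), and 6 of the 9 passed as higher. That of the 9 T cell markers was 4.83 ± 1.16 against 5.64 ± 0.0549, and 1 of the 9 passed. All 10 B cell markers were higher in OA (median difference 1.11) and 4 of them passed, and of the 7 plasmablast markers, 6 were higher (median 1.37) and 3 passed. Red cell markers differed by -0.37 and the intergenic signal by -1.71. The part of these in the 24 h result was not tested. Both serum arrays at 24 h came from slide 1 and the OA arrays from slides 2, 3 and 5, so that no difference within a slide can be had, and with slide as a block no member passed (median difference 0.38).

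The scaling moved all genes at 24 h. Relative to the median of always detected probes, the median difference of all genes was -0.55 in place of 0.05, and that of the members -0.07 in place of 0.53. The members thus lay 0.48 above all genes in both. By that scaling 5 members passed, 3 higher (Mcm3, Mcm6 and Pcna) and 2 lower (Cdk1 and Cdc45), beside 1401 higher and 5223 lower genes in place of 3922 and 4007. After quantile normalization 8 members passed, all higher, beside 3384 higher and 2363 lower genes, and Cdk1 and Cdc45 were at -1.18 and -0.35. In the authors' deposited values 7 members passed, all higher.

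The other members at 24 h did not pass. Mcm2 and Mcm7 differed by 1.06 and 0.81, Tk1 by 1.38, Prc1 by 1.22, Aurka by 1.43, Plk1 by 1.06, Birc5 (survivin) by 0.82 and Cdc20 by 0.59. Kif11 differed by -1.40 with neither group above background. Mki67, at 1.82 and 0.86 in serum and 2.54, 0.68 and 1.39 in OA, differed by 0.20 ± 0.594, and Ccnb1 by -0.09 ± 0.567. Ube2c, Nusap1 and Ccna2 differed by -0.61, -0.58 and -0.18, with overlap between the groups. The median over the 7 that followed red cell markers was -0.18, with none past the threshold. That over the 12 that followed T cell markers was 1.13, with 7 past it. The share past it among all genes with a T cell slope was not computed.

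Among the 82 measured genes of the wider cell cycle list, 17 passed at 24 h in limma, 9 higher and 8 lower, a share below the 31.5% of all genes. Higher were Cks2 (2.04, not above background in serum) and Cks1b (1.37), the small partners of cyclin-dependent kinases, Cdkn1a, or p21 (1.54, at least 1.78-fold), Tob1, an antiproliferative gene (1.5), Cdc25a, a phosphatase that activates Cdk2 (1.47), Stmn1, a tubulin-binding protein (1.31), Fen1, the flap endonuclease (1.27), Tfdp1, the partner of E2F factors (1.12), and Rbl1, a pocket protein (0.99). Cdkn1a and Tob1 restrain the cycle and Cdc25a, Fen1 and Tfdp1 promote it. Among the lower were Gmnn, or geminin, the inhibitor of Cdt1 (-3.97, at least 4.76-fold), and Clspn, a checkpoint adaptor (-2.73, at least 2.11-fold). Each of these bounds uses the mean of both serum arrays, of which replicate 1 was the higher. Lower too were Cdkn3, a phosphatase of Cdk proteins (-1.92), Gins2, a helicase partner (-1.80), and the kinetochore gene Ndc80 (-2.77). So were Cdkn2a, the Ink4a and Arf gene (-2.98), and the kinetochore gene Nuf2 (-2.08), which were above background in neither group. None of the 17 passed without serum replicate 1, where their adjusted p-values were 0.435 to 0.803 in limma.

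At the other times none of the wider list passed in limma, where no gene on the array did. Those with the smallest p were Cdkn2c, an inhibitor of Cdk4 and Cdk6 (1.33), and Cdc25a (1.2) at 1 h, Dut, the dUTPase (1.35), and Cdkn1a (1.13) at 1.5 h, Cdkn2c (1.52) and Dut (1.69) at 3 h, Anln, a cytokinesis scaffold (-3.00), and Kif2c, a kinetochore motor (4.28), at 4 h, and Ect2, a cytokinesis factor (-0.99), and E2f4, a mostly repressive E2F (-1.01), at 18 h.

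Averaged over the 6 times, 25 of 32 members had a difference above 0, with a median of 0.14 against -0.02 for all genes. None passed in limma, against 1 gene in all (0.00397%). At an unadjusted p under 0.05 in limma there were 2 members, against 3697 of 25195 genes. Aurka had the smallest p. Its level ran from -3.60 to -1.18 in serum (median -2.61) and from -3.79 to 0.08 in OA (median -1.28). It was above background on 5 of 13 serum arrays and 14 of 17 OA arrays. The array's 75th percentile reached 87 in serum and 136 in OA, and its part in these counts was not tested. The ranges of Aurka overlapped, with a mean difference of 0.82 ± 0.304 (limma, adjusted p = 0.312). The difference was above 0 at 5 of the 6 times, 4 h being the exception at -1.15. Tyms had a mean difference of -0.75 and Cdt1 of 0.40. On the wider list the smallest p-values were those of Cks2 (0.75) and Cdc25a (0.61).

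Whether the difference changed from the first 4 times to the last pair was also fitted. No member and no gene passed in limma (0%). The members with the smallest p were Cdc45 (-1.15), Top2a (1.38) and Mcm6 (0.79). A test for any change of the difference between the 6 times called no member and 2 genes (0.00794%). Among members the smallest p was that of Cdc45 (adjusted p = 0.222 in limma). Cdkn2a (-2.28) and Cdkn3 (-1.63) led the wider list in the first of these tests, with none past the threshold.

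Time itself moved few genes. From 1 to 4 h to 18 and 24 h, no member passed in limma in serum mice (37 genes, 0.147%, with 0.0357% higher and 0.111% lower). None passed in OA mice either (39 genes, 0.155%, with 0.111% higher and 0.0436% lower). In serum mice the smallest p-values were those of Top2a (-1.23), Birc5 (-0.68) and Mcm6 (-0.63), with Chaf1b, a chromatin assembly factor (-0.94), and Tacc3, a spindle protein (-0.72), on the wider list. In OA mice they were those of Tk1 (0.83), Cdc45 (-0.59) and Cdk1 (-0.85), with Anln (-1.05) and Cdca5, or sororin (-0.71). Tests for any difference between times called no member in serum (11 genes, 0.0437%) and none in OA (34 genes, 0.135%). For Birc5 and Tk1 the kept probes disagreed (r = 0.04 and 0.12 over 30 arrays between the used probe and another), and so did those of Ccnb1 (r = 0.29).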

How the data were processed

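Cy3-labelled RNA (200 ng of total RNA per mouse) was hybridised to 1-colour Agilent mouse arrays, 1 per sample. Per the file headers, the deposited scanner files hold linear intensity values from Feature Extraction 10.5.1.1, which the submitters' processing notes also name. The authors' processed signal is corrected for background within each array but not normalized between arrays. A deposited table of the authors' values, which set against the scanner values lie on a log2 scale (column medians 5.35 to 5.36), served only as an alternative. The sources used here do not say how that table was background-corrected, scaled and centred.

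Control spots and outlier spots (91 to 1408 per array) were dropped, and no saturation occurred. The log2 processed signal minus the array's 75th percentile was used, spots of 1 probe were averaged, and probes well above background on at least 3 of 30 arrays were kept (35905 of 55681). Each gene had its brightest kept probe. Genes were named from RefSeq tables of GRCm38.p6 by accession (26762 probes), symbol (3819) or older symbol (639), and 24461 probes kept their array name.

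A model of 12 groups was fitted with limma 3.58.1 in R 4.3.3 (18 residual degrees of freedom, two-sided tests, Benjamini-Hochberg over 25210 genes, threshold 0.05). The scripts were tested on simulated data. The number of arrays limits the precision. Where all arrays of a group left a probe not well above background, the fold is a bound ("at least"): the mean of the brighter group over the mean, in the dim group, of each array's lowest detectable signal or the probe's own value if higher. Such a bound applies to the main processing alone, since differences under other settings were at times smaller. Slopes on marker means were fitted within groups and were added after the data were seen. The members and lists were chosen with earlier results of these data known. Genes named are those past the threshold, the 3 members (2 of the wider list) with the smallest p in each contrast, the brightest member of each role, and Mki67, Top2a, Cdk1, Pcna and Ccnb1.

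Replicate numbers do not pair the mice: over 12 pairs of same-numbered arrays the correlation of deviations from group means was -0.53 to 0.42, and 4 pairs were over 0.1. The highest correlation between any 2 arrays was 0.982, and none was counted as a repeat. Alternatives covered scaling, normalization, background correction, the authors' table, filters, probe choice, slide, scan day, the replicate block, arrays that stand apart, intergenic signal and each array left out. The value of 1 gene of the wider list is not reported here.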

Additional observations from a re-analysis of the deposited data

How the results depend on the processing

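Results were recomputed under up to 17 other settings, of which 4 bear only on the marker slopes and 1, the fit of only the compared groups, on 18 of the 25 summary results. They were also recomputed with each of the 30 arrays left out, where the comparison could still be fitted. No filter, a filter of 10 arrays and the mean of all probes moved none of the 25. A count was called moved if it changed by over 1.5 times or to or from 0. A median was called moved if it changed by 0.291 or more, the SD of the member median within groups. With no filter, Bub1 (-2.03), Ccne2 (-1.53) and Cdc6 (-1.54), left out of the main fit, passed at 24 h as lower in OA. Their probes were above background on at most 1 array. The count of members past the threshold at 24 h (10) became 5 when scaled to always detected probes, 4 with scan day as a block, and 0 with slide as a block, with the intergenic covariate, without the 3 arrays that stand apart and with only the compared groups in the fit. The replicate block gave 5, and pairing changed no other count by over 1.5 times. The 24 h median (0.53) became -0.07 when scaled to always detected probes, 0.16 with normexp, 0.23 in the authors' table and 0.10 with the intergenic covariate. The 4 h median (-0.72) became -0.15, -0.25 and -0.06 under the same scaling, normexp and covariate, and -0.20 without the 3 arrays. The median for late less early times became 0.01 with the covariate. The count with a red cell slope (7) became 4 without the 2 arrays farthest from the median and 0 in serum arrays alone. That with a T cell slope (12) became 0 when scaled to always detected probes, after quantile normalization, in the authors' table and with the covariate, and 4 without the 3 arrays or in OA arrays alone. With the covariate Cdt1 (-0.02) and Mcm5 (-0.05) at 24 h and the T cell slope of Tk1 (-0.37) changed sign. The causes of these shifts were not tested.

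With 1 array left out in turn, the counts were 0 to 0 at 1, 1.5, 3, 4 and 18 h and for the mean of the times, 0 to 14 at 24 h (0 without serum replicate 1, 14 without serum replicate 2), 0 to 2 for late less early times, 0 to 3 for time in serum, 0 to 1 for time in OA, 0 to 0, 0 to 1 and 0 to 7 for the tests of any difference between times in serum, in OA and of the difference, 5 to 7 for red cell slopes and 11 to 12 for T cell slopes. The medians were 0.20 to 0.36 at 1 h, 0.18 to 0.45 at 1.5 h, -0.07 to 0.39 at 3 h, -1.06 to -0.20 at 4 h, -0.06 to 0.15 at 18 h, 0.50 to 0.66 at 24 h, 0.05 to 0.23 for the mean, 0.22 to 0.43 for late less early, -0.40 to -0.18 for time in serum and -0.12 to 0.18 for time in OA. Probes near background limit Cdk1, Cdc45, Top2a, Ccnb1 and Kif11.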
